A study of Mus musculus with 292 samples.

Results

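The SR and hnRNP splicing factors are 29 genes, 9 of them SR genes (Srsf1, Srsf2, Srsf3, Srsf4, Srsf6, Srsf7, Srsf9, Srsf10 and Srsf11) and 20 of them hnRNP genes. They were taken from 48795 genes by symbol (Srsf with a number, or Hnrnp) and by a mean of at least 1 CPM (counts scaled to the size of the library) in the tables of all 4 tissues. Of 33 genes whose symbol matched, 4 were left out. Srsf5 was left out by name, Srsf12 because its mean in liver was 0.03 CPM, and 2 others as pseudogenes. No measured rhythm is a term of the rule, but the members were chosen with earlier results of these data known. Messenger RNA was sequenced from the cortex (right hemisphere), striatum, hypothalamus and liver of male C57BL/6J mice, all wild type, untreated as far as the labels say, and 26 weeks old. Samples were taken every 3 h over 36 h and fall into 8 zeitgeber time groups (ZT, counted in h and by convention from lights on, with the light schedule not given in the sources used here). Both cycles cover ZT0 to ZT12, and the first alone covers ZT15 to ZT21. The 291 libraries used were 78 of cortex, 60 of striatum, 77 of hypothalamus and 76 of liver. Most ZT groups held 12 libraries at ZT0 to ZT12 and 6 at ZT15 to ZT21, and the striatum groups were smaller, with 2 at ZT15 and 4 at ZT18.

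SR proteins carry RNA recognition motifs and a tail rich in arginine and serine, bind exonic enhancers and recruit the spliceosome to nearby splice sites. hnRNP proteins coat nascent transcripts, often oppose SR proteins at weak exons, and also act in the transport, stability and translation of messages. Kinases of the SRPK and CLK families set the activity of SR proteins. Many genes of both families hold exons that send their own message to nonsense-mediated decay, so that the level of the message is under feedback from the protein. Daily cycles of alternative splicing are known in mouse liver, where feeding and body temperature are among their drivers.

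Promoters of 4 of the 8 members that held a searched motif are printed as examples of where an E-box or a D-box, motifs known from clock-driven genes, lies in these genes. RefSeq promoters of 300 bases on GRCm38.p6, which run from upstream to just past the annotated start, were found for 27 of the 29 members. On both strands they were searched for the E-box CACGTG bound by the core clock activators, the D-box TTATGTAA or TTACGTAA, the cAMP element TGACGTCA and the heat shock element GAANNTTC. The E-box was in 5 members (Hnrnpa3, Hnrnpd, Hnrnpf, Hnrnph2 and Hnrnpm) and in 8.09% of all 27025 genes with a promoter. The D-box was in Hnrnpa2b1 alone among the members and in 1.23% of all genes. The heat shock element was in 4 members (Hnrnpa2b1, Hnrnpf, Hnrnpl and Srsf9) and in 9.04% of all genes, and the cAMP element in 0 members and 2.03% of all genes. Capitals mark the motif in each sequence, given 5′ to 3′ on the strand of the gene. In Hnrnpa2b1 (chr6:51469845-51470144, minus strand) the D-box starts at offset -31 from the annotated start base and the heat shock element at offset 11.
Hnrnpa2b1: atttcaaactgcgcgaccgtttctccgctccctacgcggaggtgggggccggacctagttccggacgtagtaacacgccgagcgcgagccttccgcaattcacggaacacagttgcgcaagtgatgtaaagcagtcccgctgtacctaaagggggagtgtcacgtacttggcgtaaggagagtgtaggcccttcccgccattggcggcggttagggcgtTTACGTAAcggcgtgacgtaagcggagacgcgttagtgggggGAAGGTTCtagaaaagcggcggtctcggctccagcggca
In Hnrnpa3 (chr2:75659009-75659308, plus strand), Hnrnpd (chr5:99978889-99979188, minus strand) and Hnrnpm (chr17:33685409-33685708, minus strand) the E-box starts at offsets -18, -32 and 13.
Hnrnpa3: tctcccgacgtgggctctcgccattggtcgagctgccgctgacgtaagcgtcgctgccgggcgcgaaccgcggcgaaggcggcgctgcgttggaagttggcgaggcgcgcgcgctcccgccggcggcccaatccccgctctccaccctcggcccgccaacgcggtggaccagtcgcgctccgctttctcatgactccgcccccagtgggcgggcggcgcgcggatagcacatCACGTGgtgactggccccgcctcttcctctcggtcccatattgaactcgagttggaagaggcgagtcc
Hnrnpd: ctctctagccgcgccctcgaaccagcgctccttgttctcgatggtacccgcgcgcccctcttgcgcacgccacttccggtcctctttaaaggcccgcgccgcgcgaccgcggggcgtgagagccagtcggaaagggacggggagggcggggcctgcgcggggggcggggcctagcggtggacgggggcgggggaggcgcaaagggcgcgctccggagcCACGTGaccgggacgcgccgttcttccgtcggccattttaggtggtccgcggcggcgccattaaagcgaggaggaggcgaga
Hnrnpm: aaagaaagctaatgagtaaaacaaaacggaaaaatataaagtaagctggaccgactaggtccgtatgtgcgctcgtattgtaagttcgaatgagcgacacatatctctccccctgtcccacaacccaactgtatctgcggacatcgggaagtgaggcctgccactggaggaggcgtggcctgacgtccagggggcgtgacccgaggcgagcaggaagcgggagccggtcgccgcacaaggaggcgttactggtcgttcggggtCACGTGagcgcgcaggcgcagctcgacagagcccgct
A match is a run of letters and was not tied to any of the rhythms below.

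Libraries held from 28.3 to 40.5 M (mega) gene counts in cortex, 11.7 to 43.4 M in striatum and 29.2 to 50.01 M in hypothalamus, and 27.5 to 41.9 M in liver. Marker genes set a few libraries apart. Slc17a7, a cortical neuron gene, was at 4.41 CPM in cortex ZT0 replicate 1 and 12.7 CPM in cortex ZT9 replicate 9, while all remaining cortex libraries lay between 882 and 1300 CPM. Gabra6, a cerebellar gene, was at 874 CPM in striatum ZT21 replicate 3, and the hypothalamus libraries ZT0 and ZT9 replicate 9 held 29306 and 20929 CPM of the pituitary gene Gh. Drd1, a marker of striatal projection neurons, ran from 0.422 to 341 CPM over the striatum libraries, and the hypothalamic gene Pmch from 0.492 to 247 CPM in the same libraries. The hepatocyte gene Alb stood at 62622 CPM or more in every liver library and at 84.3 CPM or less in every brain library. Liver ZT18 replicate 4, in which Gm42418, a gene model over ribosomal RNA sequence, took 622770 CPM, was left out. The libraries that stand apart are the cortex, striatum and hypothalamus replicates named above and striatum ZT3 replicate 5. The last held 11.7 M counts and 175705 CPM of Gm42418. No other striatum library was taken out, whatever its level of Drd1 or Pmch. Each count below is also given without the libraries that stand apart where that changed it by more than 1 member.

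Set per length and scaled to library totals, the mRNAs of both families were more abundant in the brain than in the liver. By library totals the counts of the median of all genes tested also lay above liver. On the log2 scale they did so by 0.82 in cortex, 0.84 in striatum and 0.94 in hypothalamus, so the excess is not particular to these families. The authors' FPKM (fragments scaled to gene length and library total) summed over the 20 hnRNP genes had a median of 603 in cortex, 601.6 in striatum and 633.8 in hypothalamus, against 319.3 in liver. Summed over the 9 SR genes it was 256.7, 294.3 and 313.3 in the brain regions, against 157.6 in liver. Hnrnpa2b1, which binds and transports many messages in neural cells, had the highest FPKM of all members in every tissue. It averaged 72.7 ± 6.27 in cortex, 86.1 ± 14.1 in striatum and 96.1 ± 9.61 in hypothalamus, and 57.9 ± 5.36 in liver (SD over libraries). The lowest FPKM was that of Hnrnpf in the 3 brain regions (4.05 to 4.19) and of Hnrnpr in liver (1.22). Among SR genes Srsf7, an adaptor of mRNA export, led in cortex at 48.6 ± 5.36 FPKM. Neighbours in the order of levels mostly lay within their spread, and the gap exceeded the SD of both neighbours at 10 of 28 steps in cortex, 4 in striatum and 6 in hypothalamus, and 10 in liver.

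**Figure D1:**
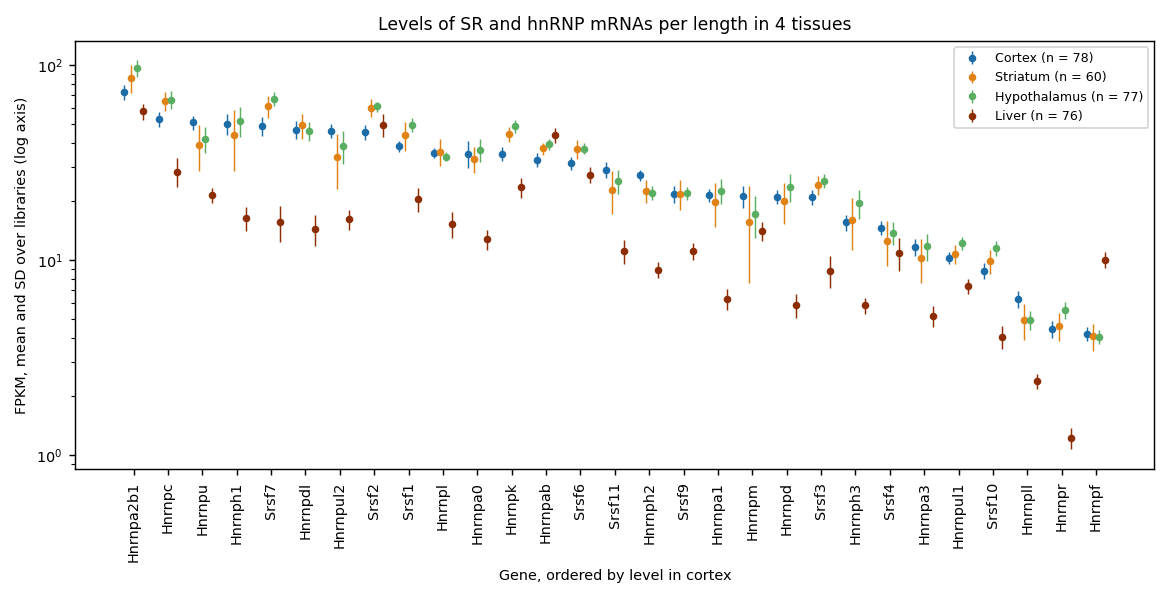
Mean FPKM (points) with SD over libraries (bars) of the 29 members in 4 tissues, on a log axis, ordered by the level in cortex. Liver lies lowest for most members, Hnrnpa2b1 is the highest member in each tissue, and Hnrnpf and Hnrnpab are the members whose liver values (10.01 and 43.7 FPKM) lie above all 3 brain regions.

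Scaled so that the bulk of genes matches between tissues (TMM), 20 members were higher and 9 lower in cortex than in liver by edgeR's quasi-likelihood test at a Benjamini-Hochberg adjusted p under 0.05, where 47.9% of all genes tested were higher and 48% lower. In striatum 19 members were higher and 8 lower than in liver (all genes 45.8% and 47.4%). In hypothalamus 19 were higher and 8 lower (46.5% and 48.5%). By library totals alone 26 members were higher and 3 lower in cortex, 26 and 2 in striatum, and 27 and 2 in hypothalamus. That scaling moved the median of all genes by 0.82, 0.87 and 0.98 on the log2 scale. The median member stood 0.41 above liver in cortex under TMM, against 5.23e-05 for the median of all genes. In whole tissue, fewer cells of a type and less RNA per cell cannot be told apart.

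Hnrnpr, an hnRNP known for roles in motor axons, was the member with the largest excess in cortex. It averaged 4.44 ± 0.458 FPKM in 78 cortex libraries and 1.22 ± 0.154 FPKM in 76 liver libraries. Its log2 difference in counts was 1.05 ± 0.02 on the TMM scale (SE, adjusted p = 5.12e-85) and 1.86 by library totals alone, the scaling that FPKM uses. Hnrnpd, which destabilises messages with AU-rich elements, averaged 21.1 ± 1.67 FPKM in cortex and 5.85 ± 0.812 FPKM in liver. Its log2 difference was 1.04 ± 0.02 under TMM (adjusted p = 6.81e-94) and 1.86 by totals. Hnrnpa1, the classic splicing silencer, followed at 0.94 ± 0.02 under TMM (adjusted p = 1.02e-80) and 1.76 by totals. At the other end stood Hnrnpf, which binds runs of G, with 4.19 ± 0.341 FPKM in cortex and 10.01 ± 0.954 FPKM in liver. Its log2 difference was -2.07 ± 0.02 under TMM (adjusted p = 1.34e-147) and -1.25 by totals. Under TMM Hnrnpab lay at -1.24 ± 0.02 (adjusted p = 3.71e-109) and Srsf2, a core component of nuclear speckles, at -0.94 ± 0.02 (adjusted p = 3.46e-96), and by totals at -0.42 and -0.13. These 6 kept their sign in cortex with library totals alone, and Srsf2 lost it in striatum and hypothalamus. Hnrnpa2b1, Srsf4, Srsf6, Hnrnpul1 and Hnrnpm were lower in each brain region than in liver under TMM. Their differences turned positive with library totals alone and were called in each region, but for Hnrnpm in striatum (0.12, adjusted p = 0.180). Exonic bases shared with a gene on the other strand made up 26.5% of Hnrnpf, 29.1% of Hnrnpab and 25.3% of Srsf2, and whether counting used strand is not given in the sources used here. Hnrnpf and Hnrnpa1 also have 6 and 9 pseudogenes at 95% identity or more over 300 bases, and Hnrnpa3 has 26, so their counts are uncertain to that extent.

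**Figure D2:**
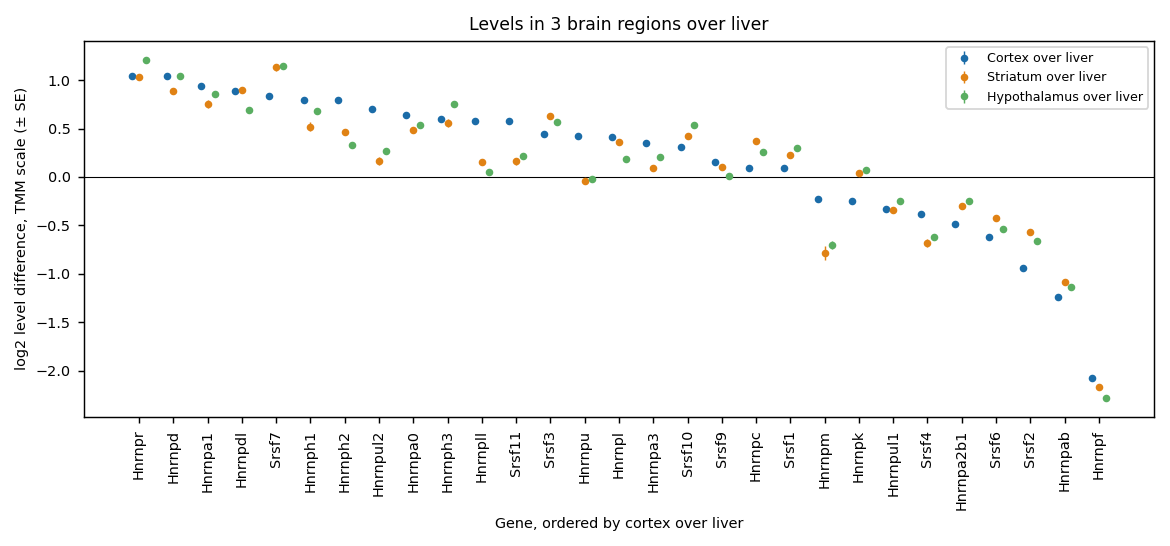
Log2 difference in level of each member (points, with SE) in cortex, striatum and hypothalamus over liver on the TMM scale, ordered by cortex over liver. Hnrnpr lies at 1.05 and Hnrnpf at -2.07 in cortex, and most members keep 1 side in all 3 regions.

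Within the brain the differences were smaller. In cortex against hypothalamus 15 members were higher and 13 lower (all genes 43.6% and 45.4%), and by library totals 9 and 16. In cortex against striatum 13 were higher and 10 lower (39.7% and 46.1%), and by totals 12 and 12. In striatum against hypothalamus 11 were higher and 6 lower (40.3% and 34.9%), 11 and 8 without the libraries that stand apart, and by totals 2 and 19. With those shifts in the split, no direction is drawn for the group between brain regions.

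For the daily course, a cosine with a period of 24 h was fitted to the counts in each tissue. The ratio of its peak to its trough is given on the log2 scale, which lies above 0 for noise too. In cortex 19 of 29 members followed the cosine at an adjusted p under 0.05 (edgeR quasi-likelihood test with Benjamini-Hochberg adjustment, as for every adjusted p below), against 43.7% of all genes tested. In striatum 6 did, against 5.7%, and 8 without the libraries that stand apart. In hypothalamus 11 did, against 24.3%, and in liver 24 did, against 74.8%. Their ratios were small. The median over all 29 members was 0.12 in cortex, 0.19 in striatum and 0.12 in hypothalamus, and 0.30 in liver, below the medians of 0.19, 0.24, 0.16 and 0.38 over all genes tested. Genes of like level were not compared. None of these called members reached 1.5-fold in any tissue. Of all called genes 1562 of 8545 did in cortex, 669 of 1233 in striatum and 936 of 4967 in hypothalamus, and 4540 of 12160 in liver. Srsf2, Srsf6, Srsf7, Srsf10, Hnrnpa2b1 and Hnrnpc were called in all 4 tissues. Hnrnpa1 and Hnrnph2 were called in none, 9 members in 1 tissue, 9 in 2 and 3 in 3. In what follows the ZT groups with the highest and the lowest mean are given as a description, since they were picked for that. CPM in these paragraphs are scaled by TMM within the tissue and are not compared between tissues or genes. Liver ZT6 replicate 7 held the highest liver value of 5 members and the lowest of Hnrnpa2b1, Hnrnph1, Hnrnph2, Hnrnpm, Hnrnpul2, Srsf1 and Srsf11. For Hnrnph1 that was 43.7 CPM against a median of 93.2, and for Srsf1 64.4 CPM against 114.6. No rhythm fit within liver left that library out.

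**Figure D3:**
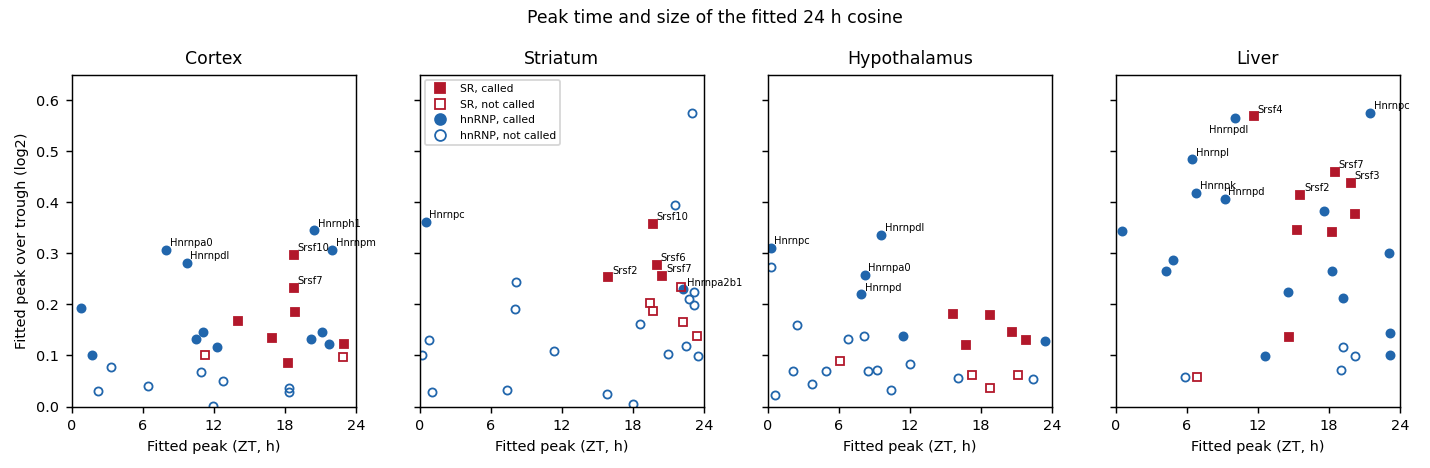
Fitted peak time (ZT in h) against the fitted peak-to-trough ratio (log2) of each member in each tissue, with squares for SR and circles for hnRNP genes, filled where the cosine was called. Called SR members, which leave out Srsf5, lie after ZT12 in every tissue but for Srsf4 in liver, and between ZT14.0 and ZT23.0 in cortex. Called hnRNP genes lie on both sides of ZT12.

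The SR genes among the members that followed the cosine mostly peaked late in the 24 h. Srsf5, the SR gene left out by name, is not among them. It was called in liver with a peak outside the window used here, as given with the lists below. All 7 called SR genes in cortex, all 4 in striatum and all 5 in hypothalamus, and 7 of 8 in liver had their fitted peak between ZT12 and ZT24, where 46.9%, 57.7%, 46.7% and 47.6% of all called genes had theirs. Of called hnRNP genes 6 of 12 in cortex, 1 of 2 in striatum and 1 of 6 in hypothalamus, and 9 of 16 in liver lay in that window. The window was chosen with the peaks known, and no test was run on it.

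Srsf2 had its peak at close times in all 4 tissues, at ZT14.0 in cortex, ZT15.9 in striatum and ZT15.7 in hypothalamus, and ZT15.6 in liver. In liver it stood between 157.9 and 219.5 CPM at ZT15 (median 181.5, n = 6) and between 118 and 138.7 CPM at ZT3 (median 128.5, n = 12). These groups did not overlap, and the fitted log2 ratio was 0.41 ± 0.04 (SE, adjusted p = 3.86e-14). In cortex it stood between 138.7 and 148.3 CPM at ZT15 (median 146) and between 119.3 and 130.3 CPM at ZT3 (median 124.8), again without overlap, with a ratio of 0.17 ± 0.03 (adjusted p = 0.000112). In hypothalamus the ratio was 0.18 ± 0.03 (adjusted p = 1.50e-05). In striatum the 4 libraries at ZT18 held 178.3, 196.1, 201.4 and 248.7 CPM and the 8 at ZT3 held 146.5 to 182.8 CPM (median 166.3), which overlapped, and the ratio was 0.25 ± 0.07 (adjusted p = 0.0263). Srsf2 was not called in striatum without ZT18 replicate 3, where the ratio was 0.21.

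Srsf10, a splicing repressor when dephosphorylated and a factor of the heat shock response, peaked at ZT18.7 in cortex, ZT19.7 in striatum and ZT16.7 in hypothalamus, and ZT18.3 in liver. In cortex it ran from 65.1 to 74.4 CPM at ZT15 (median 69.9) and from 49.1 to 61.3 CPM at ZT6 (median 55.9), with no overlap. It was the member with the smallest p there, with a ratio of 0.30 ± 0.04 (adjusted p = 3.49e-10). In striatum the 4 libraries at ZT18 held 82.5, 85.2, 85.8 and 104.1 CPM, above the 55.1 to 67.3 CPM at ZT9 (median 60.8, n = 9), with a ratio of 0.36 ± 0.07 (adjusted p = 0.00145). The ratio was 0.34 ± 0.05 in liver (adjusted p = 4.67e-08) and 0.12 ± 0.04 in hypothalamus (adjusted p = 0.0484). The call in hypothalamus held in 5 of 11 other settings.

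Srsf6, known to act on exon inclusion in many tissues, peaked at ZT18.8 in cortex, ZT20.0 in striatum and ZT18.7 in hypothalamus, and ZT14.6 in liver. In hypothalamus it ran from 184.7 to 206.6 CPM at ZT18 (median 193.9) and from 153.9 to 179.7 CPM at ZT6 (median 169.2), with no overlap and a ratio of 0.18 ± 0.03 (adjusted p = 3.62e-06). In cortex it ran from 152.7 to 175.4 CPM at ZT15 (median 166.2) and from 134.2 to 149.8 CPM at ZT6 (median 143.8), with a ratio of 0.18 ± 0.03 (adjusted p = 4.94e-06). In striatum the 4 libraries at ZT18 held 184.3, 196.8, 205.5 and 239.1 CPM, all above the 9 libraries at ZT9, and the ratio was 0.28 ± 0.06 (adjusted p = 0.00135). In liver its groups overlapped and the ratio was 0.14 ± 0.04 (adjusted p = 0.00614).

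Srsf7 peaked at ZT18.7 in cortex, ZT20.5 in striatum and ZT20.6 in hypothalamus, and ZT18.5 in liver. Its ratio was 0.46 ± 0.08 in liver (adjusted p = 1.06e-05), where it ran from 35.3 to 50.7 CPM at ZT0 (median 43.5) and from 25.6 to 33.9 CPM at ZT3 (median 27.7). Those neighbouring ZT groups did not overlap. Whether the course in liver departs from a cosine was not tested. The ratio was 0.23 ± 0.05 in cortex (adjusted p = 8.04e-05) and 0.15 ± 0.04 in hypothalamus (adjusted p = 0.00376). In striatum it was 0.26 ± 0.07 (adjusted p = 0.0377), a call that held in 8 of 17 other settings and was lost without ZT18 replicate 2 (0.24) or replicate 4 (0.24).

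The other SR genes were called in fewer tissues. Srsf1, the founding SR protein, was called in liver at 0.38 ± 0.05 (peak ZT20.2, adjusted p = 2.73e-10) and in cortex at 0.09 ± 0.03 (peak ZT18.3, adjusted p = 0.0238), the second in 7 of 12 other settings. Srsf3, the smallest SR protein, was called in liver at 0.44 ± 0.07 (peak ZT19.8, adjusted p = 5.38e-07), where it ran from 52.3 to 65.97 CPM at ZT15 and from 32.1 to 46.9 CPM at ZT9. In cortex Srsf3 stood at 0.13 ± 0.04 (adjusted p = 0.0157). Srsf11, which takes part in the splicing of neuronal microexons, was called in liver alone, at 0.35 ± 0.05 (peak ZT15.3, adjusted p = 2.05e-07), and had an adjusted p of 0.0510 in cortex, where it was called in 9 of 12 other settings. Srsf9 was called in hypothalamus alone, at 0.13 ± 0.03 (peak ZT21.8, adjusted p = 0.00336). Srsf4 had the largest ratio of the SR genes in liver and is given below with the differences between tissues.

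**Figure D4:**
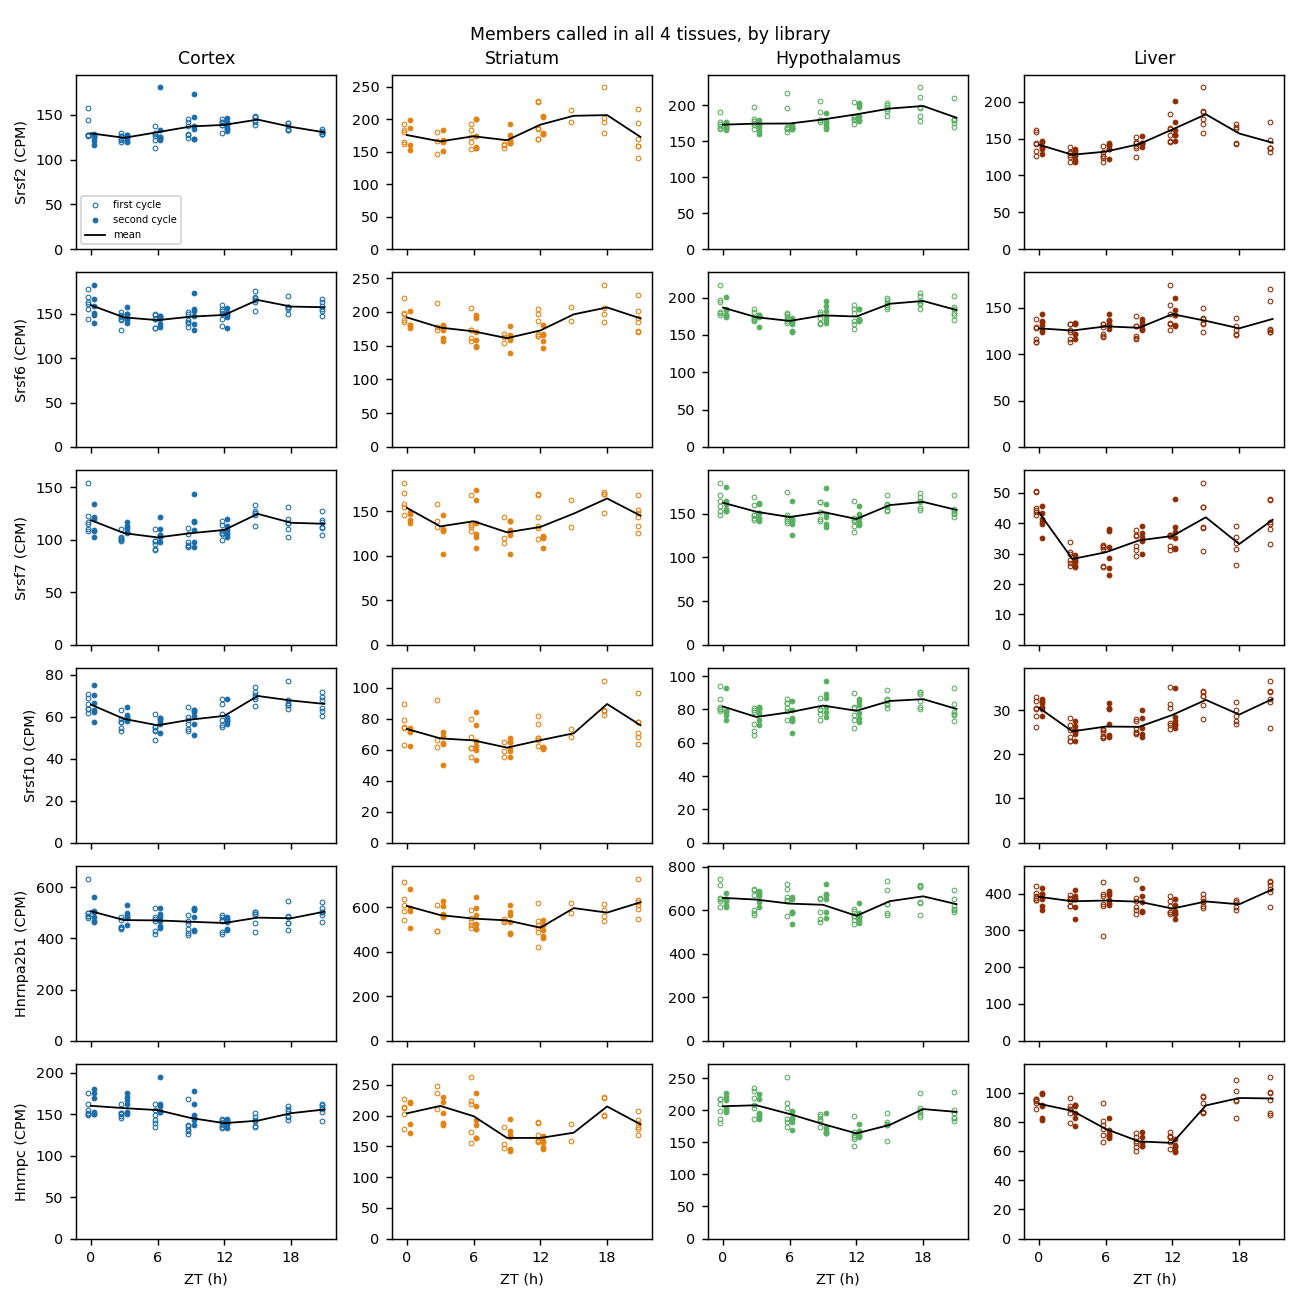
CPM of the 6 members called in all 4 tissues in each library (open points first cycle, filled points second cycle) with the mean of each ZT group (line), by ZT in h. Srsf2 in liver rises to a median of 181.5 CPM at ZT15, Hnrnpc has its trough at ZT12 in cortex, hypothalamus and liver, and the axes start at 0.

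Among the members with symbols that start with Hnrnpa, Hnrnpa2b1 was called in every tissue with its peak shortly before ZT0. It peaked at ZT21.7 in cortex, ZT22.2 in striatum and ZT23.4 in hypothalamus, and ZT23.2 in liver. In striatum it ran from 548.1 to 727.9 CPM at ZT21 (median 617.8) and from 420.9 to 618.9 CPM at ZT12 (median 509.6), groups that overlapped, with a ratio of 0.23 ± 0.05 (adjusted p = 0.00613). The value of 727.9 CPM is that of ZT21 replicate 3, the library with 874 CPM of Gabra6, which held the highest striatum value of 17 of the 29 members. The ratio of Hnrnpa2b1 was 0.12 ± 0.03 in cortex (adjusted p = 0.00648), 0.13 ± 0.04 in hypothalamus (adjusted p = 0.0152) and 0.10 ± 0.03 in liver (adjusted p = 0.0148). Its call held in 11 of 12 other settings in cortex, 14 of 17 in striatum and 9 of 11 in hypothalamus, and 14 of 16 in liver. Hnrnpa0, which binds AU-rich elements, had its peak before ZT12. It was called at 0.31 ± 0.05 in cortex (peak ZT7.97, adjusted p = 8.17e-06), 0.26 ± 0.05 in hypothalamus (peak ZT8.18, adjusted p = 0.000211) and 0.29 ± 0.05 in liver (peak ZT4.86, adjusted p = 8.11e-06). In cortex it ran from 90.9 to 210.2 CPM at ZT6 (median 96.4) and from 79.1 to 88.5 CPM at ZT21 (median 86.9), with no overlap. The highest of these values was that of ZT6 replicate 10, which held the highest cortex value of 9 of the 29 members. Without that library, a setting chosen after seeing the data, Hnrnpa0 stood at 0.23 (adjusted p = 1.63e-12), and 21 members and 9046 of all genes were called in cortex. Hypothalamus ZT6 replicate 5 held 160.4 CPM of Hnrnpa0 against a median of 97.5 CPM. It held the highest hypothalamus value of 8 members, Hnrnpc, Hnrnpdl and Hnrnpk among them. Liver ZT6 replicate 7 held 52.1 CPM of Hnrnpa0 against a median of 33.7 CPM. No rhythm fit within hypothalamus or liver left these libraries out. Hnrnpab was called in liver alone, at 0.23 ± 0.04 (peak ZT14.5, adjusted p = 5.04e-06). Hnrnpa1 had adjusted p values of 0.706, 0.872, 0.2004 and 0.572 in cortex, striatum, hypothalamus and liver.

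Hnrnpc, which binds runs of uridine and guards against the inclusion of cryptic exons, had the largest ratio of called members in striatum and in liver. In liver the 5 libraries at ZT18 held 82.4, 94.05, 95.1, 101 and 108.9 CPM, and the 12 at ZT12 held 59.2 to 72.7 CPM (median 65.2). The groups did not overlap, and the ratio was 0.58 ± 0.04 with a peak at ZT21.5 (adjusted p = 8.12e-19). In the brain it peaked later, at ZT0.813 in cortex, ZT0.529 in striatum and ZT0.253 in hypothalamus. In cortex it ran from 149.3 to 180.4 CPM at ZT0 (median 154) and from 133.6 to 144.5 CPM at ZT12 (median 139.6), with no overlap and a ratio of 0.19 ± 0.03 (adjusted p = 5.41e-06). The ratio was 0.36 ± 0.07 in striatum (adjusted p = 7.00e-04) and 0.31 ± 0.04 in hypothalamus (adjusted p = 3.32e-09), where the ZT3 and ZT12 groups overlapped in both.

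Hnrnpd and Hnrnpdl peaked between ZT7.91 and ZT10.0 where they were called. Hnrnpdl, related to Hnrnpd and subject to its own decay-coupled exon, was the member with the smallest p in hypothalamus. It ran there from 225.7 to 278 CPM at ZT9 (median 253.7, n = 11) and from 175.6 to 214.7 CPM at ZT0 (median 193, n = 12), with no overlap, a peak at ZT9.57 and a ratio of 0.34 ± 0.03 (adjusted p = 1.78e-13). In cortex it peaked at ZT9.71 with a ratio of 0.28 ± 0.03 (adjusted p = 4.01e-10). In liver it ran from 74.9 to 102.7 CPM at ZT12 (median 80.5) and from 46.1 to 62.5 CPM at ZT0 (median 56.2), with a peak at ZT10.0 and a ratio of 0.56 ± 0.05 (adjusted p = 1.20e-14). In striatum, where its peak was fitted at ZT8.12, it stood at 0.24 ± 0.08 and was not called (adjusted p = 0.0910). Hnrnpd was called in liver at 0.41 ± 0.05 (peak ZT9.19, adjusted p = 9.16e-12) and in hypothalamus at 0.22 ± 0.07 (peak ZT7.91, adjusted p = 0.0279), the second in 6 of 11 other settings.

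In the F/H group, which binds runs of G, Hnrnph1 and Hnrnpf peaked between ZT17.6 and ZT20.5 where they were called. Hnrnph1 had the largest ratio of all members in cortex, 0.35 ± 0.04 with a peak at ZT20.5 (adjusted p = 1.26e-09). It ran there from 289.2 to 362.9 CPM at ZT21 (median 339.1) and from 222.9 to 315.7 CPM at ZT9 (median 264.1), with overlap. In liver it stood at 0.38 ± 0.06 (peak ZT17.6, adjusted p = 8.35e-08). In hypothalamus it stood at 0.05 ± 0.07 and was not called (adjusted p = 0.841). Hnrnpf was called in cortex (0.13 ± 0.04, adjusted p = 0.0161) and liver (0.21 ± 0.04, adjusted p = 6.53e-06), with peaks at ZT20.2 and ZT19.2. Hnrnph3 was called in cortex at an adjusted p of 0.0480, which held in 5 of 12 other settings, and Hnrnph2 had adjusted p values of 0.9997, 0.442, 0.275 and 0.357 in cortex, striatum, hypothalamus and liver.

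Hnrnpk, which binds runs of C, and Hnrnpl, which binds CA repeats, had their largest ratios in liver, with peaks near ZT6. Hnrnpk ran there from 140 to 161.6 CPM at ZT9 (median 148.9, n = 11), against 98.9, 104.5, 106.6, 107.2 and 109 CPM at ZT18. The groups did not overlap, and the ratio was 0.42 ± 0.03 with a peak at ZT6.77 (adjusted p = 1.66e-18). In cortex and hypothalamus Hnrnpk was called at 0.13 ± 0.03 (peak ZT10.5, adjusted p = 0.00314) and 0.14 ± 0.04 (peak ZT11.4, adjusted p = 0.0170). Hnrnpl ran in liver from 97.6 to 122.2 CPM at ZT6 (median 105.1) and from 57.7 to 82.8 CPM at ZT15 (median 65.3), without overlap, with a ratio of 0.48 ± 0.05 (peak ZT6.47, adjusted p = 2.95e-12). In the brain its ratio was 0.04 ± 0.03 in cortex, 0.13 ± 0.07 in striatum and 0.02 ± 0.02 in hypothalamus, and none was called. Hnrnpll, its paralogue, was called in liver at 0.10 ± 0.03 (adjusted p = 0.0295), in 12 of 16 other settings.

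Hnrnpm, which binds GU-rich sequence, was called in cortex at 0.31 ± 0.05 with a peak at ZT22.0 (adjusted p = 2.15e-07), where it ran from 93.0 to 119.5 CPM at ZT21 (median 115.7) and from 59.1 to 102.5 CPM at ZT9 (median 89.6). The value of 59.1 CPM is that of ZT9 replicate 9, a library with 12.7 CPM of Slc17a7, and the call in cortex held in 12 of 12 other settings. In striatum Hnrnpm had the largest fitted ratio of all members, 0.57 ± 0.22, and was not called (adjusted p = 0.219). Its coefficient of variation over libraries was 47.7% in striatum, where the median member had 14.8%, and 22.4% in hypothalamus, where the median member had 9.20%. Gm42418 moved the opposite way in these libraries (correlations under the closing observations), and its CPM ran from 963 to 175705 in striatum and from 1307 to 159223 in hypothalamus. In cortex the median of Gm42418 was lowest at ZT21 (1089 CPM) and highest at ZT15 (10246 CPM). With the log2 level of Gm42418 as a covariate, a setting chosen after seeing the data, Hnrnpm was called in hypothalamus at 0.24 (adjusted p = 0.000265), and the members called numbered 20 in cortex, 9 in striatum and 15 in hypothalamus, and 25 in liver. Of all genes 8813 were called with it in cortex (8545 without), 2188 in striatum (1233) and 6706 in hypothalamus (4967), and 12038 in liver (12160). No member called without the covariate lost its call with it.

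In the U group and beside it, Hnrnpu, the nuclear scaffold protein, was called in liver alone, at 0.14 ± 0.03 (peak ZT23.1, adjusted p = 0.000412), and Hnrnpul1 in liver alone, at 0.27 ± 0.03 (peak ZT4.22, adjusted p = 7.39e-12). Hnrnpul2 was called in cortex (0.15 ± 0.04, peak ZT21.1, adjusted p = 0.00215) and liver (0.27 ± 0.05, peak ZT18.2, adjusted p = 3.67e-06). Exonic bases shared with another gene made up 14.7% of Hnrnpm (same strand) and 6.93% of Hnrnpu (opposite strand).

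Peaks matched within the brain and less well between brain and liver. Of 9 members called in both cortex and hypothalamus all 9 peaked within 3 h of each other, as did 85% of all genes called in both. The same held for all 6 in cortex and striatum (92.7%) and all 6 in striatum and hypothalamus (95.7%). Of 17 members called in both cortex and liver 10 peaked within 3 h and 3 were more than 6 h apart, against 40.8% and 32.8% of all genes. Of 10 called in both hypothalamus and liver 7 were within 3 h and 0 over 6 h apart (43.5% and 29.8%), and of 6 in striatum and liver 4 and 0 (48.9% and 23.4%). The pairs share the same mice, and liver is in 3 of them.

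The rhythm itself, size and timing at once, was compared by the interaction of tissue with the cosine. For cortex against liver 20 of 29 members differed (65.3% of all genes tested), for striatum against liver 15 (42.8%; 17 without the libraries that stand apart) and for hypothalamus against liver 23 (61.4%). For cortex against hypothalamus 2 differed (6.14%), Srsf10 (adjusted p = 0.0157) and Hnrnph1 (adjusted p = 0.0458), and 1 without the libraries that stand apart. For Hnrnpa2b1 and Hnrnph3 the difference was not called in cortex against liver (adjusted p = 0.561 and 0.191), and Srsf10 and Srsf7 had adjusted p values of 0.802 and 0.0935 there.

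Srsf4, whose long arginine and serine tail sets it apart in the family, had the smallest p of all members for a difference between cortex and liver (adjusted p = 1.04e-16). In cortex it ran from 46.04 to 59.2 CPM at ZT0 (median 57.5) and from 41.2 to 56.4 CPM at ZT9 (median 50.3), groups that overlapped, with a peak at ZT23.0 and a ratio of 0.12 ± 0.04 (adjusted p = 0.0125). In liver it ran from 39.5 to 58.1 CPM at ZT12 (median 47.03) and from 27.9 to 36.7 CPM at ZT0 (median 32.2), without overlap, with a peak at ZT11.7 and a ratio of 0.57 ± 0.06 (adjusted p = 1.15e-13). It differed from liver in striatum (adjusted p = 4.94e-08) and hypothalamus (adjusted p = 3.18e-10) as well. Gm12992 on the opposite strand shares 43.02% of the exonic bases of Srsf4.

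Hnrnpr followed (adjusted p = 7.18e-15 for cortex against liver). It peaked at ZT11.1 in cortex, with a ratio of 0.15 ± 0.04 (adjusted p = 0.00483), and at ZT0.507 in liver, with a ratio of 0.34 ± 0.03 (adjusted p = 1.35e-13). In liver it ran from 25.4 to 32.9 CPM at ZT3 (median 30.1) and from 21.2 to 24.5 CPM at ZT12 (median 22.7), with no overlap. Hnrnpa3, which shares a role in mRNA transport with Hnrnpa2b1, was the other member with peaks more than 6 h apart, ZT12.3 in cortex (0.12 ± 0.04, adjusted p = 0.0373) and ZT23.1 in liver (0.30 ± 0.04, adjusted p = 8.63e-11). The difference in rhythm of Hnrnpa3 between cortex and liver had an adjusted p of 3.11e-11. Hnrnpc differed between cortex and liver at an adjusted p of 5.27e-12, with peaks on either side of ZT0. Between hypothalamus and liver the smallest p values were those of Hnrnpl (adjusted p = 1.01e-13) and Hnrnpk (adjusted p = 1.63e-10), and between striatum and liver, after Srsf4, those of Hnrnpul1 (adjusted p = 2.51e-06) and Hnrnpl (adjusted p = 4.70e-06).

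**Figure D5:**
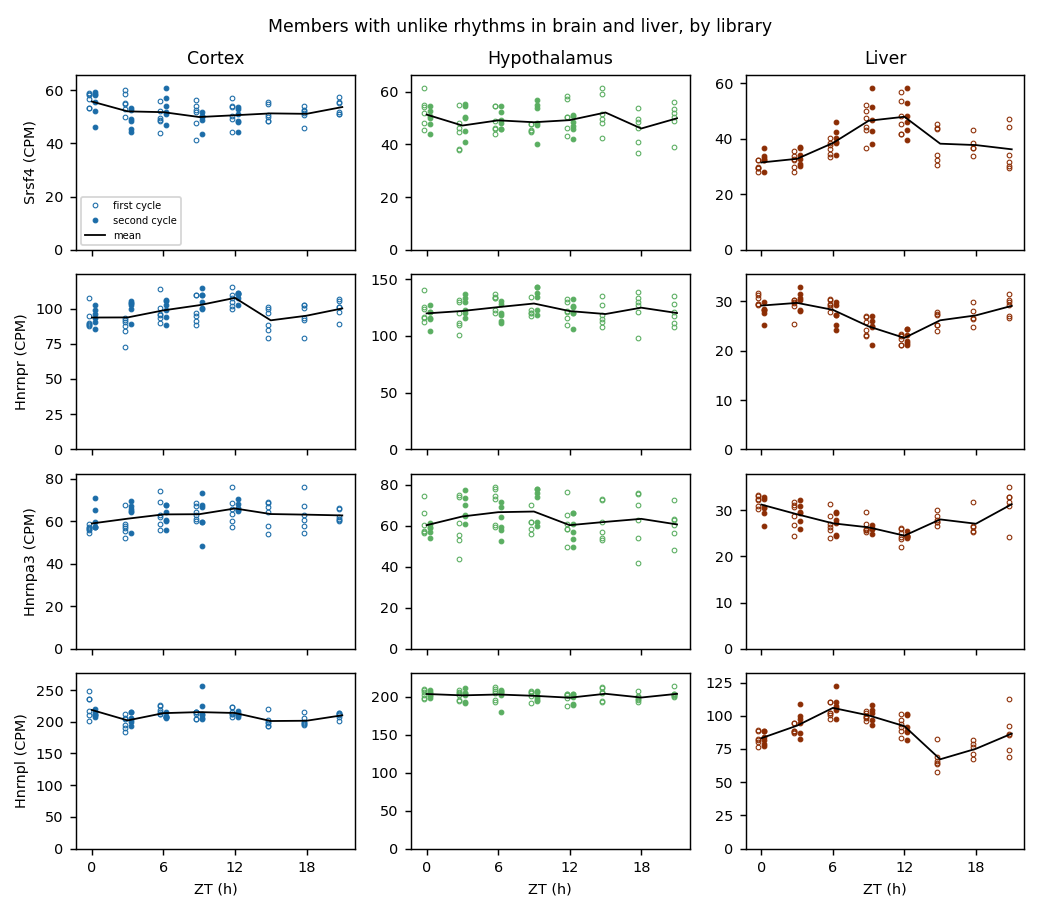
CPM of Srsf4, Hnrnpr, Hnrnpa3 and Hnrnpl by library and ZT (h) in cortex, hypothalamus and liver, with open points for the first and filled points for the second cycle and a line for the mean of each ZT group. Srsf4 in liver has its highest mean at ZT12 and its lowest at ZT0, Hnrnpr and Hnrnpa3 in liver have their lowest at ZT12, and Hnrnpl is flat in hypothalamus, with a ratio of 0.02.

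Cycles were compared at ZT0 to ZT12, the second over the first. In cortex 4 members were higher in the second cycle (6.82% of all genes tested were called), and 6 were without the libraries that stand apart. Hnrnpd averaged 160.1 ± 8.72 CPM in the second cycle and 151 ± 11.1 CPM in the first (SD, n = 30 each), groups whose libraries overlapped, a log2 difference of 0.09 ± 0.02 (adjusted p = 0.0146). Hnrnpc averaged 156.1 ± 15.0 CPM in the second cycle and 146.5 ± 11.8 CPM in the first, a log2 difference of 0.09 ± 0.03 (adjusted p = 0.0319). Hnrnpll (0.10 ± 0.03, adjusted p = 0.0419) and Hnrnpr (0.08 ± 0.03, adjusted p = 0.0463) were the other 2. In striatum 0 members were called by edgeR (2.92% of all genes), with 5 at an unadjusted p under 0.05, of which Hnrnpdl lay at -0.16 ± 0.05 (adjusted p = 0.0580) and Srsf9 at -0.18 ± 0.06 (adjusted p = 0.0854). In hypothalamus and liver 0 members and 0% of all genes were called, with 1 and 2 members and 1179 and 1100 of all genes at an unadjusted p under 0.05.

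Regulators and partners of these proteins were read from lists of known genes, and each count below stands beside the 43.7% of all genes called in cortex, 5.7% in striatum and 24.3% in hypothalamus, and 74.8% in liver, with no test of the difference. Of the 10 kinases and phosphatases that act on SR proteins 8 followed the cosine in cortex, 3 in striatum and 3 in hypothalamus, and 8 in liver. Clk1, a kinase of nuclear speckles, was called in cortex at 0.48 ± 0.07 with a peak at ZT17.9 (adjusted p = 7.71e-07), close to the peaks of Srsf6 and Srsf10 there. Srpk1, the cytoplasmic kinase of SR proteins, was called in liver at 0.50 ± 0.04 with a peak at ZT17.5 (adjusted p = 7.41e-16). Of 16 SR-like and SR-related genes 8, 4 and 6 were called in cortex, striatum and hypothalamus, and in liver all 15 tested. Tra2a and Tra2b, splicing activators with arginine and serine tails, were called in liver at 1.09 ± 0.07 and 0.65 ± 0.07, with peaks at ZT20.7 and ZT20.6 (adjusted p = 1.22e-21 and 2.79e-13). These ratios exceeded those of every SR and hnRNP member in liver.

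Of 31 core spliceosome genes 16, 2, 8 and 24 were called in cortex, striatum, hypothalamus and liver. U2af1, which reads the end of the intron, and Prpf3, of the U4/U6 particle, were called in liver at 0.69 ± 0.06 and 0.67 ± 0.06 with peaks at ZT19.5 and ZT18.9 (adjusted p = 8.99e-15 and 6.34e-15). Of the tissue splicing regulators 17 of 26 tested were called in cortex, 0 of 28 in striatum and 7 of 27 in hypothalamus, and 14 of 19 in liver. Of 12 paraspeckle and related proteins 5, 2, 3 and 8 were called, with Sfpq, a core paraspeckle protein, at 1.01 ± 0.09 and ZT16.3 in liver (adjusted p = 9.13e-16). Of 8 genes of nuclear import and arginine methylation 2, 0, 2 and 8 were called, and of 10 of nonsense-mediated decay 6, 1, 2 and 8, with Upf1, the helicase of that pathway, at 0.65 ± 0.05 and ZT17.4 in liver (adjusted p = 1.84e-17). The cold-inducible RNA-binding proteins were called in liver at 0.93 ± 0.08 and ZT15.7 for Rbm3 (adjusted p = 6.02e-16) and at 1.13 ± 0.11 and ZT6.81 for Cirbp (adjusted p = 7.24e-14). Srsf5, the SR gene left out by name, stood at 0.57 ± 0.07 and ZT8.52 in liver (adjusted p = 2.70e-10), outside the ZT12 to ZT24 window of the other SR genes called there but Srsf4.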

How the data were processed

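Gene counts and FPKM values for 292 libraries were deposited by the authors, 1 table of each per tissue. Per the submitters' processing notes STAR 2.7.3a and HTSeq 0.10.0 were used with GRCm38, also named mm10. Which annotation release and strand setting were used is not given in these sources. Per the labels' protocols total RNA was extracted with a miRNeasy kit. Libraries were grouped by tissue and ZT from the labels. Liver ZT18 replicate 4 was left out.

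Rhythms, differences in rhythm, levels and cycles were tested on the deposited counts with edgeR 4.0.16 (R 4.3.3): filterByExpr by ZT group, TMM, and the quasi-likelihood test over all genes with Benjamini-Hochberg adjustment, called at an adjusted p under 0.05. Rhythm fits used the cosine and sine of ZT (24 h), with standard errors of ratios by the delta method, and were tested on simulated data. Differences in rhythm used the interaction of tissue with that cosine and sine, and ZT was a factor in the fits of levels and cycles. Of simulated rhythms of 1.2-fold, 44% were recovered in cortex, 8% in striatum and 43% in hypothalamus, and 40% in liver. At 1.5-fold these were 82%, 39%, 80% and 82%. Each simulation held 6000 genes, 100 of them rhythmic at each fold and 5800 unchanged. In the data 43.7% of all genes were called in cortex and 74.8% in liver. Adjustment over mostly unchanged genes asks for a smaller p, so these rates do not give the power for the members. Some were called below 1.2-fold (0.263 on the log2 scale), such as Srsf1 in cortex at 0.09 and Hnrnpll in liver at 0.10. A member not called, above all in striatum, may still have a small rhythm. The authors' FPKM served only for levels per length. Alternatives were DESeq2 1.42.0, other scalings and filters, ZT as a factor, left-out libraries, cycles, the replicate or mouse block, and the L code in the library names, whose meaning is not stated. With 5 to 12 libraries in most ZT groups, and totals above 10 M (mega) counts per library, the spread between libraries limits precision more than counting does.

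Mouse codes in the labels tie the tissues of 1 animal: 58 codes stand in 4 tissues, 18 in 3, 2 in 2 and 1 in 1. Within a tissue each library is a separate animal. Deviations of the same mouse from the group means correlated at 0.0169 to 0.0552 on average between tissues. Replicate numbers mark nothing that the labels state.

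Members and lists were chosen with earlier results of these data known. The genes described in detail were, per tissue, the 5 called members with the smallest p and the 2 with the largest ratio, those called in all 4 tissues, the 3 with the smallest p for each difference from liver, the 3 at each end of cortex over liver, the 2 with the smallest p between cycles, and up to 3 called genes of each list, some of which are not reported here. The remaining members are given by their values.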

Additional observations from a re-analysis of the deposited data

Results flagged for a closer look

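In 28 groups of 4 to 10 libraries the highest or lowest value of a member described in detail was set against the gap to its neighbour. In 3 of them 1 library stood far from the others. Chance alone flags about 1 in 20 groups that were not picked by their values. These were the ZT groups with the highest or lowest mean, so that rate is no measure for them. Hnrnpm in cortex ZT21 replicate 4 held 93.0 CPM, and the other libraries of that group held 113 to 120 CPM. Srsf10 in striatum ZT18 replicate 3 held 104.1 CPM, and the others held 82.5 to 85.8 CPM. Srsf7 in striatum ZT18 replicate 1 held 148 CPM, and the others held 169 to 172 CPM.

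The same 24 h contrast differed between tissues by the test of the difference itself (edgeR's quasi-likelihood test, adjusted over all genes) for 20 members in cortex against liver (65.3% of all genes), 15 in striatum against liver (42.8%), 23 in hypothalamus against liver (61.4%) and 2 in cortex against hypothalamus (6.14%). The smallest adjusted p values for cortex against liver were 1.04e-16 for Srsf4, 7.18e-15 for Hnrnpr and 5.27e-12 for Hnrnpc. For striatum against liver they were 4.94e-08 for Srsf4, 2.51e-06 for Hnrnpul1 and 4.70e-06 for Hnrnpl. For hypothalamus against liver they were 1.01e-13 for Hnrnpl, 1.63e-10 for Hnrnpk and 3.18e-10 for Srsf4.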

How the results depend on the processing

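Of 167 other settings of the counts of members called, 151 kept the count within 1.5 times, and of 573 settings of single genes 538 kept the call. The cause of the following changes was not tested. With library totals alone 3 members were lower in cortex than in liver, 2 in striatum and 2 in hypothalamus, 9 were higher in cortex than in hypothalamus, and 2 were higher and 19 lower in striatum than in hypothalamus. In striatum 3 members followed a rhythm with ZT as a factor and 0 with the first cycle alone, which holds fewer libraries. In hypothalamus 5 did with the first cycle alone. For the difference in rhythm between cortex and hypothalamus 1 member remained with DESeq2 size factors, with no filter and without the libraries that stand apart. Between cycles in cortex 2 were called with DESeq2 size factors and 1 with no filter.

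A replicate block, which the labels do not back, gave 19 members in hypothalamus (all genes 7138, against 4967 without it) and 0 between cycles in cortex (all genes 259, against 1290). Libraries of 1 tissue with the same number correlated at 0.00225 to 0.115 on average in their deviations, with single pairs as low as -0.571. The mouse block changed no call of a gene named for it and moved no count by over 1.5 times. Without single libraries of the smallest groups, striatum gave 5 to 6 members and liver 24 to 25, and without cortex ZT6 replicate 10 cortex gave 21. Every member had a mean of 1 CPM or more in every tissue, and striatum had 2 libraries at ZT15 and 4 at ZT18.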

Other observations

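With Hnrnpm, chosen after its spread in striatum was seen, 12 of 28 other members correlated at a Pearson r of 0.5 or more and 4 at -0.5 or less in 60 striatum libraries. In 77 hypothalamus libraries these were 14 and 4, in 78 cortex libraries 2 and 0, and in 76 liver libraries 4 and 0. Values were log2 CPM less the mean of the ZT group, and 124 relations were computed. The share of all genes at these limits was not computed, so whether the counts are particular to the members is not known. The smallest p that 100000 permutations can give is 1e-05, which is 3.1e-05 after Benjamini-Hochberg adjustment for r and 3.18e-05 for rho.

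Hnrnpul2 had r = 0.952 and rho = 0.962 with Hnrnpm in striatum (permutation p = 1e-05 for both), 0.954 without the 2 farthest libraries and 0.954 within L codes. In hypothalamus it had r = 0.947 and rho = 0.936 (permutation p = 1e-05 for both), 0.939 without the 2 farthest and 0.951 within L codes. Hnrnpk ran the other way, with r = -0.805 and rho = -0.791 in striatum (permutation p = 1e-05 for both), -0.774 without the 2 farthest and -0.813 within L codes. In hypothalamus Hnrnpk had r = -0.648 and rho = -0.713 (permutation p = 1e-05 for both), -0.62 without the 2 farthest and -0.65 within L codes. In liver Hnrnpul2 had r = 0.655 (permutation p = 1e-05) and rho = 0.267 (permutation p = 0.0199). Without the 2 farthest libraries r was 0.259, so the size of r depends on those.

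Gm42418, the gene model over ribosomal RNA sequence, had r = -0.86 and rho = -0.878 with Hnrnpm in striatum, -0.88 and -0.868 in hypothalamus, and -0.703 and -0.643 in cortex (permutation p = 1e-05 for each). Without the 2 farthest libraries r was -0.855, -0.872 and -0.659, and within L codes it was -0.869, -0.879 and -0.7. In liver r was -0.1 (permutation p = 0.384) and rho -0.0618 (permutation p = 0.594). Its part in the spread of Hnrnpm was not tested beyond the covariate fit given with the rhythms.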
